A study of Homo sapiens with 60 samples.

Results

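Ribosome biogenesis was followed through 35 genes in HT29, an established line from a human colorectal adenocarcinoma, exposed for 24 h to herbal extracts. The set held MYC, 3 subunits of RNA polymerase I, 5 nucleolar scaffold and helicase proteins, and 3 box C/D and 4 box H/ACA small nucleolar ribonucleoprotein (snoRNP) genes. It also held 9 assembly and processing factors of the small ribosomal subunit and 10 of the large one, called small and large subunit genes here. The members were found by their symbols among the 60675 gene identifiers of the count table, and all 35 were among the 16445 genes with enough counts to be tested. Each takes part in a step between the copying of ribosomal DNA and the export of finished subunits, and MYC stands above them as a regulator.

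Ribosomes are built in the nucleolus. RNA polymerase I copies the ribosomal DNA into a long precursor, snoRNPs guide its methylation and pseudouridylation, and large assemblies fold, cut and package it into the small and the large subunit. MYC is the transcription factor best known for raising the genes of this pathway, by binding with its partner MAX to the E-box, whose canonical letters are CACGTG. In colorectal cancer cells MYC is itself a target of Wnt signalling, and ribosome production is known to keep pace with growth.

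The groups were cells with water extracts of the multi-herb formulas Palmul-tang and Sibjeondaebo-tang and with ethanol extracts of Poria Cocos, Atractylodis Rhizoma, Glycyrrhizae Radix (licorice) and Panax Ginseng, 3 libraries for each extract and dose, and 3 libraries of vehicle cells in DMSO (0.1% in the sample labels, 2% in the series text). The doses were 20, 100 and 500 µg/mL, or 14, 70 and 350 µg/mL for Glycyrrhizae Radix, and they are called low, medium and high. An ethanol extract of Angelicae Gigantis Radix had 1 library at each of 12.8, 64 and 320 µg/mL. Where a high dose lies below 500 µg/mL it was the extract's IC20, the dose that inhibits by 20%, by the rule in the series text, and the extracts are mixtures whose active compounds the labels do not name. Sample names place the formulas in one set, Poria Cocos with Atractylodis Rhizoma, Glycyrrhizae Radix with Panax Ginseng, and Angelicae Gigantis Radix in a set of its own, and the vehicle libraries carry no set number. The titles of all libraries, vehicle included, name the same batch, C. Nothing in the labels says that replicates were separate cultures, so p-values measure the spread between libraries, which may be technical.

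Library totals ran from 19.31 to 29.62 M counts around a median of 25.06 M. Vehicle totals were 19.79 to 20.88 M. The summed level of 11 colon epithelium markers was 11800 to 14400 CPM (counts scaled to a common library total), with KRT8 alone at 6070 to 7690 CPM. Not all of them were high. CDX1 ran from 0.359 to 1.44 CPM, CDX2 from 3.53 to 6.27 CPM and CEACAM5 from 5.06 to 17.1 CPM. The summed level of 10 markers of other cell types was 6.95 to 12.8 CPM, with CD3E at 0 in 59 of 60 libraries. The first principal component of deviations from the group means held 7% of that variance. Farthest out on its positive side were library 1 of low dose Poria Cocos and library 3 of low and of high dose Panax Ginseng. Their scores were 28.9, 17.7 and 16.2, and the next library on that side had 14, so only the first stood well apart. Libraries on the negative side were not ranked. These 3 are called the outlying libraries here. Counts of calls that use them are also given without these 3 libraries. The share of counts from mitochondrially encoded genes was 5.59% to 7.40% in the means of the treated groups with 3 libraries, against 8.71% ± 1.19 in vehicle cells (SD, n = 3). Dose comparisons within an extract use no vehicle library and come first.

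Averaged over the 6 extracts, most of the set was slightly higher at the high than at the low dose. In the mean of the 6 differences between high and low dose, 26 of the 35 genes rose and 0 fell, where 11.4% of all tested genes rose and 10.1% fell (called at an adjusted p below 0.05 in edgeR's quasi-likelihood test over all tested genes). The changes were small, with a median log2 fold change of 0.063 over the 35 genes and a range of -0.007 to 0.126. Without the 3 outlying libraries 28 genes rose, and of the 26 only UTP20 no longer passed. When Glycyrrhizae Radix was left out of the mean, as an alternative chosen after the data were seen, 30 genes rose and 0 fell. Most of the set was lower at the high dose of that extract, so leaving it out favours rises and the count is no separate evidence. The share of all tested genes is not given for either of these fits. In these bulk libraries each level is a share of its library, so neither the number of cells nor the RNA per cell can be read from it. Differences of this size sit close to the spread between libraries. The SD of replicate libraries on the log2 scale had a median of 0.054 over the genes, while the 18 treated group means of a gene spanned a median of 0.208.

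MYC, the regulator, was among the 26 genes. Over the 6 extracts its mean log2 difference was 0.08 ± 0.02 (SE, adjusted p = 0.000216), but no single extract gave a called change. Its values were 289.4, 298.6 and 321.5 CPM at the high dose of Glycyrrhizae Radix, against 292.1, 284.1 and 266.9 CPM at the low dose. They were 292.5, 280.5 and 297.4 CPM at the high dose of Atractylodis Rhizoma, against 271.9, 266.6 and 253.1 CPM at the low dose. Every high dose library of MYC lay above every low dose one with Atractylodis Rhizoma, as also with Palmul-tang, Poria Cocos and Panax Ginseng, and the doses overlapped with Glycyrrhizae Radix. With Sibjeondaebo-tang the high dose held 272.5, 268.6 and 265.9 CPM, inside the low dose range of 255.2, 280.8 and 291.1 CPM.

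Of the RNA polymerase I subunits, POLR1A and POLR1B, which form the catalytic centre of the enzyme, rose in the mean of the extracts by log2 0.05 ± 0.02 and 0.07 ± 0.02 (SE). POLR1C, a subunit shared with RNA polymerase III, did not pass, at log2 0.00 ± 0.02. POLR1B had 80.75, 77.0 and 75.14 CPM at the high dose of Atractylodis Rhizoma, against 73.68, 69.8 and 63.83 CPM at the low dose, groups that did not overlap (log2 0.17 ± 0.04 SE, adjusted p = 0.0138). At the high dose of Glycyrrhizae Radix it had 68.36, 68.27 and 69.19 CPM, against 71.51, 75.91 and 69.07 CPM at the low dose, which overlapped (log2 -0.07 ± 0.04, adjusted p = 0.255).

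All 9 small subunit genes rose in the mean over extracts. RRP12, which helps the small subunit precursor mature and leave the nucleus, rose by log2 0.10 ± 0.02 (SE, adjusted p = 3.36e-06), and TSR1, a factor of the late small subunit precursor, by 0.11 ± 0.02 (adjusted p = 3.52e-06). BYSL rose by 0.11 ± 0.02, and RRP9, the protein that binds U3 small nucleolar RNA, by 0.12 ± 0.03. RRP12 had 93.99, 96.12 and 90.17 CPM at the high dose of Panax Ginseng, against 85.46, 83.0 and 82.36 CPM at the low dose (log2 0.16 ± 0.04, adjusted p = 0.0113). It had 93.41, 90.62 and 89.36 CPM at the high dose of Atractylodis Rhizoma, against 82.91, 84.24 and 83.48 CPM at the low dose (log2 0.13 ± 0.04, adjusted p = 0.0484). In both extracts every high dose library exceeded every low dose one.

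WDR43, a component of the small subunit processome that couples transcription of the precursor to its processing, showed the same pair of rises. Its values were 124.9, 137.5 and 132.7 CPM at the high dose of Panax Ginseng, against 114.4, 119.5 and 118.1 CPM at the low dose (log2 0.17 ± 0.04, adjusted p = 0.0104). With Atractylodis Rhizoma they were 124.8, 129.5 and 133.3 CPM at the high dose, against 121.0, 116.2 and 108.0 CPM at the low dose (log2 0.17 ± 0.04, adjusted p = 0.00653). Neither pair of groups overlapped.

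Among the snoRNP genes, NOP56, a core protein of box C/D particles, rose in the mean over extracts by log2 0.06 ± 0.02, and so did FBL, the RNA methyltransferase of the same particles, by 0.06 ± 0.02. Their partner NOP58 stayed at -0.01 ± 0.03 (adjusted p = 0.907). In the box H/ACA group the pseudouridine synthase DKC1 rose by 0.08 ± 0.02 and NOLC1, a nucleolar chaperone of snoRNPs, by 0.08 ± 0.01. NHP2 and GAR1 did not pass, at 0.04 ± 0.03 and 0.07 ± 0.03. NOLC1 had 380.0, 371.6 and 362.0 CPM at the high dose of Panax Ginseng, against 359.9, 334.7 and 334.4 CPM at the low dose, with no overlap (log2 0.11 ± 0.03, adjusted p = 0.0406).

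Of the 10 large subunit genes 7 rose, led by WDR74, a factor of large subunit assembly, at log2 0.08 ± 0.02 (adjusted p = 0.000737). BOP1 and WDR12 of the PeBoW complex, which is needed to process the large subunit RNAs, rose by 0.06 ± 0.02 and 0.05 ± 0.02, and their partner PES1 was at 0.04 ± 0.02 (adjusted p = 0.125). NOP16 and RRS1 did not pass, at 0.04 ± 0.03 and 0.07 ± 0.03. WDR74 had 60.2, 57.9 and 59.07 CPM at the high dose of Poria Cocos, against 53.74, 52.32 and 54.32 CPM at the low dose, groups that did not overlap although the change was not called (log2 0.14 ± 0.05, adjusted p = 0.0932).

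In the nucleolar scaffold and helicase group LYAR, a zinc finger protein of growing cells, MYBBP1A, a nucleolar partner of Myb, and the RNA helicase DDX21 rose in the mean over extracts. The abundant scaffold proteins NCL and NPM1 did not pass, at log2 0.03 ± 0.03 and 0.03 ± 0.02, and NPM1 has near-identical pseudogene copies that make its counts uncertain. DDX21 had the largest mean difference of the 35 genes (log2 0.13 ± 0.02, adjusted p = 4.59e-05) although no single extract was called. Its values were 450.8, 394.2 and 398.3 CPM at the high dose of Glycyrrhizae Radix, against 384.3, 357.7 and 381.9 CPM at the low dose. With Atractylodis Rhizoma they were 447.9, 440.1 and 423.9 CPM at the high dose, against 397.7, 376.8 and 406.0 CPM at the low dose. DDX21 was the single member whose high dose libraries all exceeded its low dose libraries with Glycyrrhizae Radix, as 19.6% of all tested genes did.

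**Figure D1:**
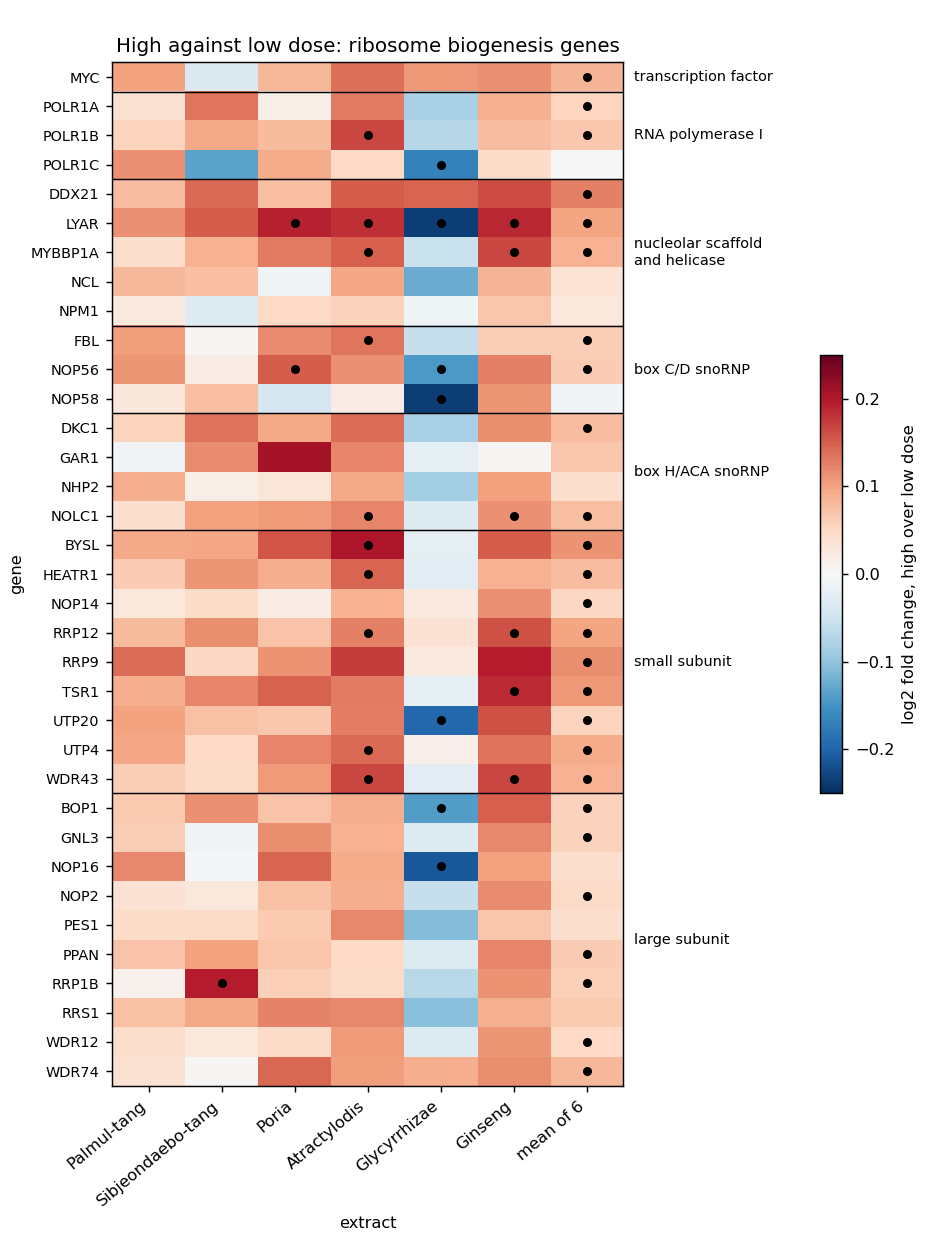
Log2 fold change of the high over the low dose (colour, limits at 0.25 either way) for the 35 genes (down, by role) in each of 6 extracts and in their mean (across). A dot marks an adjusted p below 0.05 in edgeR's quasi-likelihood test, and the Glycyrrhizae Radix column is mostly of the opposite colour to the others.

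The MYC motif was looked for in the promoters of the set. In RefSeq promoter windows on GRCh38.p14, which run from 250 bases before to 50 after a gene's start, the letters CACGTG were searched. The motif is its own reverse complement, so both strands read alike. Of the 35 genes 28 had a window, and 14 of these held the motif, against 8.77% of all 27305 genes with a window and 12.29% of the 11184 tested genes with one. The members were picked as ribosome biogenesis genes, many known as MYC targets, so this share describes the choice of genes as well as the pathway. MYC, NOLC1, BOP1, RRP12, NOP58, RRP1B and RRS1 had no window. The first base of the motif lay between 64 bases before and 35 bases after the start, before it in 5 genes and after it in 9. This range was set by the members themselves and covers 33.3% of the window. Of all 2548 windows with CACGTG, 41.2% had their first motif in it. The 30 bases around the motif are given for 8 genes, 5′ to 3′ on the gene's strand with CACGTG in capitals, so that its flanks can be compared. WDR43, LYAR and DDX21 are shown as genes described library by library, and FBL, BYSL, UTP4, UTP20 and MYBBP1A were chosen after their values were seen.
LYAR: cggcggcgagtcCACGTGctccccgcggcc
DDX21: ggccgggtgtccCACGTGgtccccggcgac
UTP4: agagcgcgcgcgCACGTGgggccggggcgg
UTP20: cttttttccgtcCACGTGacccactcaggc
WDR43: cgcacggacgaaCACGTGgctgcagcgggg
FBL: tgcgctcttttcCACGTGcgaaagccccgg
MYBBP1A: ggggccggagcaCACGTGtttcgtgtttcg
BYSL: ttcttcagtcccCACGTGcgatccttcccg
The LYAR stretch is at chr4:4290068-4290097 on the minus strand, 64 bases before the start, and that of DDX21 is at chr10:68956604-68956633 on the plus strand, 31 bases before it. UTP4 (chr16:69132621-69132650, plus strand) has the motif 16 bases and UTP20 (chr12:101280083-101280112, plus strand) 10 bases before the start. In WDR43 (chr2:28894658-28894687, plus) it begins 3 bases, in FBL (chr19:39846356-39846385, minus) 6 bases, in MYBBP1A (chr17:4555340-4555369, minus) 27 bases and in BYSL (chr6:41921515-41921544, plus) 28 bases after it. Genes with the motif had a median log2 difference of 0.078 in the mean over extracts and genes without it 0.058. With Glycyrrhizae Radix the medians were -0.03 and -0.076, and no test was made of either pair.

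Extract by extract, mean levels were mostly higher at the high dose, except with Glycyrrhizae Radix. Mean CPM was higher at the high than at the low dose for 35 of 35 genes with Palmul-tang, 30 with Sibjeondaebo-tang, 33 with Poria Cocos, 35 with Atractylodis Rhizoma and 35 with Panax Ginseng, but for 7 with Glycyrrhizae Radix. Over all tested genes that share was 48.0% to 49.7%. Mean CPM increased at both steps, low to medium to high, for 24, 20, 21, 24 and 26 genes in those first 5 extracts, in the same order, and for 4 with Glycyrrhizae Radix, where 10 genes (28.6%) decreased at both steps, as did 23.0% of all tested genes. By comparison, 15.7% to 21.1% of all tested genes increased at both steps. Members share libraries, so these counts are a description and not independent evidence. The largest step differed among extracts: the median log2 ratio was 0.033 from low to medium and 0.096 from medium to high with Panax Ginseng, and 0.046 and 0.013 with Sibjeondaebo-tang.

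**Figure D2:**
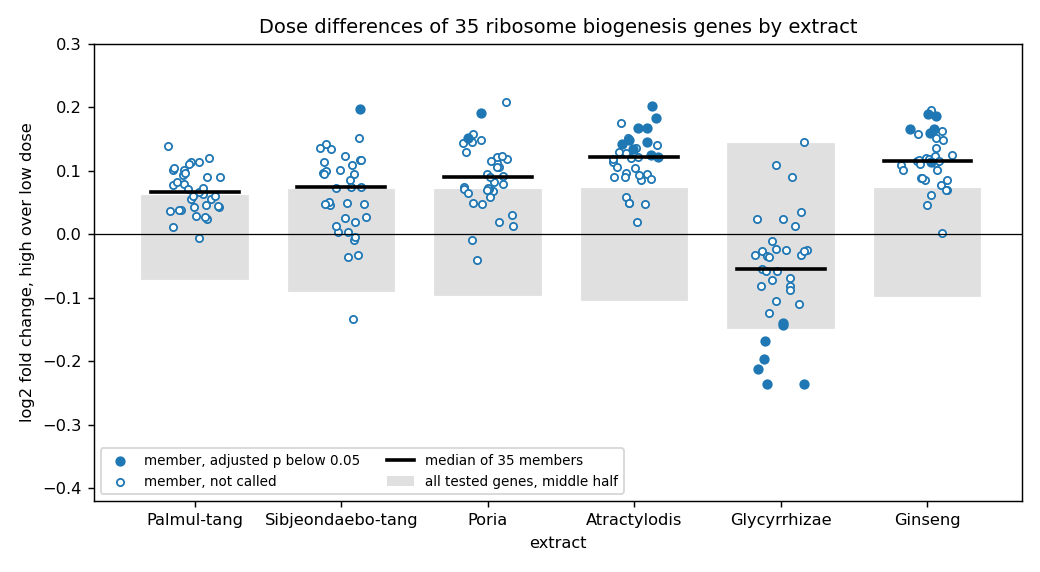
Log2 fold change of the high over the low dose for each of the 35 genes (points, filled where the adjusted p was below 0.05) by extract, with the median of the set as a bar and the interquartile range of all tested genes in grey. The medians lie at 0.066, 0.074, 0.09, 0.121 and 0.115 with Palmul-tang, Sibjeondaebo-tang, Poria Cocos, Atractylodis Rhizoma and Panax Ginseng, and at -0.055 with Glycyrrhizae Radix.

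Taken one extract at a time, few of these changes passed the test. Atractylodis Rhizoma raised 10 of the 35 genes and lowered 0, where 1.93% of all tested genes rose and 2.01% fell, 3.95% in all. These were POLR1B, FBL, NOLC1, the small subunit genes WDR43, RRP12, BYSL, UTP4 and HEATR1, and LYAR and MYBBP1A, with log2 fold changes of 0.12 to 0.20. BYSL had 41.46, 44.88 and 39.84 CPM at the high dose, against 39.33, 36.02 and 34.25 CPM at the low dose (log2 0.20 ± 0.06, adjusted p = 0.0275). The count was 2 without library 1 or library 3 of the high dose or library 3 of the low dose, 3 without library 2 of the low dose, 5 without library 2 of the high dose, and 0 when the 6 libraries were fitted alone, with far fewer residual degrees of freedom. The 3 against 3 libraries did not overlap for 24 genes, all higher at the high dose, where 10.4% of all tested genes did so.

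Panax Ginseng raised 6 genes and lowered 0, where 1.29% of all tested genes rose and 1.23% fell, 2.52% in all. They were TSR1 (log2 0.19 ± 0.04, adjusted p = 0.00694), LYAR, MYBBP1A, WDR43, RRP12 and NOLC1. TSR1 had 84.6, 83.45 and 83.05 CPM at the high dose, against 74.13, 71.03 and 75.52 CPM at the low dose, a clear gap. MYBBP1A had 102.2, 105.1 and 104.7 CPM at the high dose, against 93.79, 93.15 and 91.01 CPM at the low dose (log2 0.17 ± 0.04, adjusted p = 0.0139), and its group mean was the highest of the 18. High dose libraries all exceeded low dose libraries for 21 genes, where 7.74% of all tested genes did so. The count of 6 was 4 without the 3 outlying libraries, 2 without library 2 of the high dose or library 3 of the low dose, 3 without library 1 of the high dose or library 2 of the low dose, and 0 with the 6 libraries alone.

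Poria Cocos raised NOP56 and LYAR and lowered 0 genes, where 1.02% of all tested genes rose and 0.839% fell, 1.85% in all. NOP56 had 257.7, 253.1 and 254.9 CPM at the high dose, against 236.0, 221.1 and 232.2 CPM at the low dose (log2 0.15 ± 0.04, adjusted p = 0.0276). For 16 genes the high dose libraries exceeded all low dose libraries, against 9.3% of all tested genes. NOP58 shows what 1 library can do here. It read 98.86, 99.53 and 101.0 CPM at the high dose, against 125.1, 87.93 and 95.4 CPM at the low dose, and the 125.1 came from the outlying library 1. Without that library 4 genes were called, as without all 3 outlying ones. The count was 1 without library 2 of the high dose and 0 without library 1 or 3 of the high dose, without library 2 or 3 of the low dose, or with the 6 libraries alone.

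The formulas gave still fewer calls. Sibjeondaebo-tang raised RRP1B, a nucleolar protein of large subunit assembly, and no other member, where 0.195% of all tested genes rose and 0.176% fell, 0.371% in all. RRP1B had 66.71, 64.64 and 71.06 CPM at the high dose, against 60.87, 57.17 and 58.65 CPM at the low dose (log2 0.20 ± 0.04, adjusted p = 0.0137), and this call was lost without library 2 or 3 of the low dose, without library 3 of the high dose and with the 6 libraries alone. Palmul-tang gave 0 calls among the 35 genes in edgeR and 0 in DESeq2, where edgeR called 0.152% of all tested genes, 0.103% higher and 0.0486% lower. At an unadjusted p below 0.05 there were 10 of the 35 genes, a looser threshold to which these shares do not apply. High dose libraries all exceeded low dose libraries for 12 genes with Sibjeondaebo-tang and 11 with Palmul-tang, against 6.76% and 7.1% of all tested genes.

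Glycyrrhizae Radix went the other way. At its high dose 7 of the 35 genes fell and 0 rose, where 10.9% of all tested genes fell and 14.0% rose, 24.9% in all, so the share called was near that of other genes. Those that fell were LYAR, NOP56 and NOP58 of the box C/D particles, NOP16 and BOP1 of the large subunit, UTP20 of the small subunit processome and POLR1C. LYAR had 36.38, 33.01 and 36.15 CPM at the high dose, against 41.87, 39.87 and 42.58 CPM at the low dose (log2 -0.24 ± 0.05, adjusted p = 0.00059). UTP20 had 83.33, 78.98 and 74.38 CPM, against 88.39, 93.77 and 89.19 CPM (log2 -0.20 ± 0.05, adjusted p = 0.00177). In both genes every high dose library was below every low dose library.

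NOP56 had 209.6, 213.7 and 214.4 CPM at the high dose of Glycyrrhizae Radix, against 237.4, 233.5 and 233.2 CPM at the low dose (log2 -0.14 ± 0.04, adjusted p = 0.00496). NOP58 had 87.19, 78.11 and 81.79 CPM, against 94.86, 93.47 and 102.7 CPM (log2 -0.24 ± 0.07, adjusted p = 0.0127). Their box C/D partner FBL, at 351.9, 340.4 and 356.0 CPM against 378.9, 357.3 and 354.5 CPM, was not called. Thus the scaffold pair of the box C/D particle was lower without overlap, while the doses overlapped for its enzyme. NOP16 had 35.15, 32.39 and 38.71 CPM, against 43.23, 40.53 and 39.49 CPM (log2 -0.21 ± 0.07, adjusted p = 0.018). BOP1 had 72.8, 74.72 and 73.09 CPM, against 82.94, 79.34 and 80.65 CPM (log2 -0.14 ± 0.05, adjusted p = 0.0387). POLR1C had 33.09, 33.72 and 30.44 CPM, against 38.2, 35.08 and 35.82 CPM (log2 -0.17 ± 0.05, adjusted p = 0.0179). In all, 9 of the 35 genes were lower at the high dose without overlap, the 7 called ones among them, where 2954 of the 16445 tested genes were. The group mean at the high dose of Glycyrrhizae Radix was the lowest of the 18 treated group means for 21 of the 35 genes. For MYC the group mean there was the highest of the 18, but MYC was not called in this comparison and its doses overlapped. Its libraries there, at 289.4, 298.6 and 321.5 CPM, also overlapped those at the high dose of Poria Cocos, at 305.6, 298.0 and 299.8 CPM. The count of 7 ranged from 5 to 7 as each library was left out. In the same comparison 3 of 11 colon epithelium markers rose, CEACAM5 most (log2 1.27 ± 0.11, adjusted p = 3.53e-13), and VIL1 fell (log2 -0.63 ± 0.04, adjusted p = 2.51e-18). CD68, a macrophage marker that other cells also express and that ran from 4.03 to 10.1 CPM over all libraries, rose (log2 0.60 ± 0.15, adjusted p = 0.00222), as 1 of 3 tested markers of other cell types. The part of these markers in the result was not tested.

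**Figure D3:**
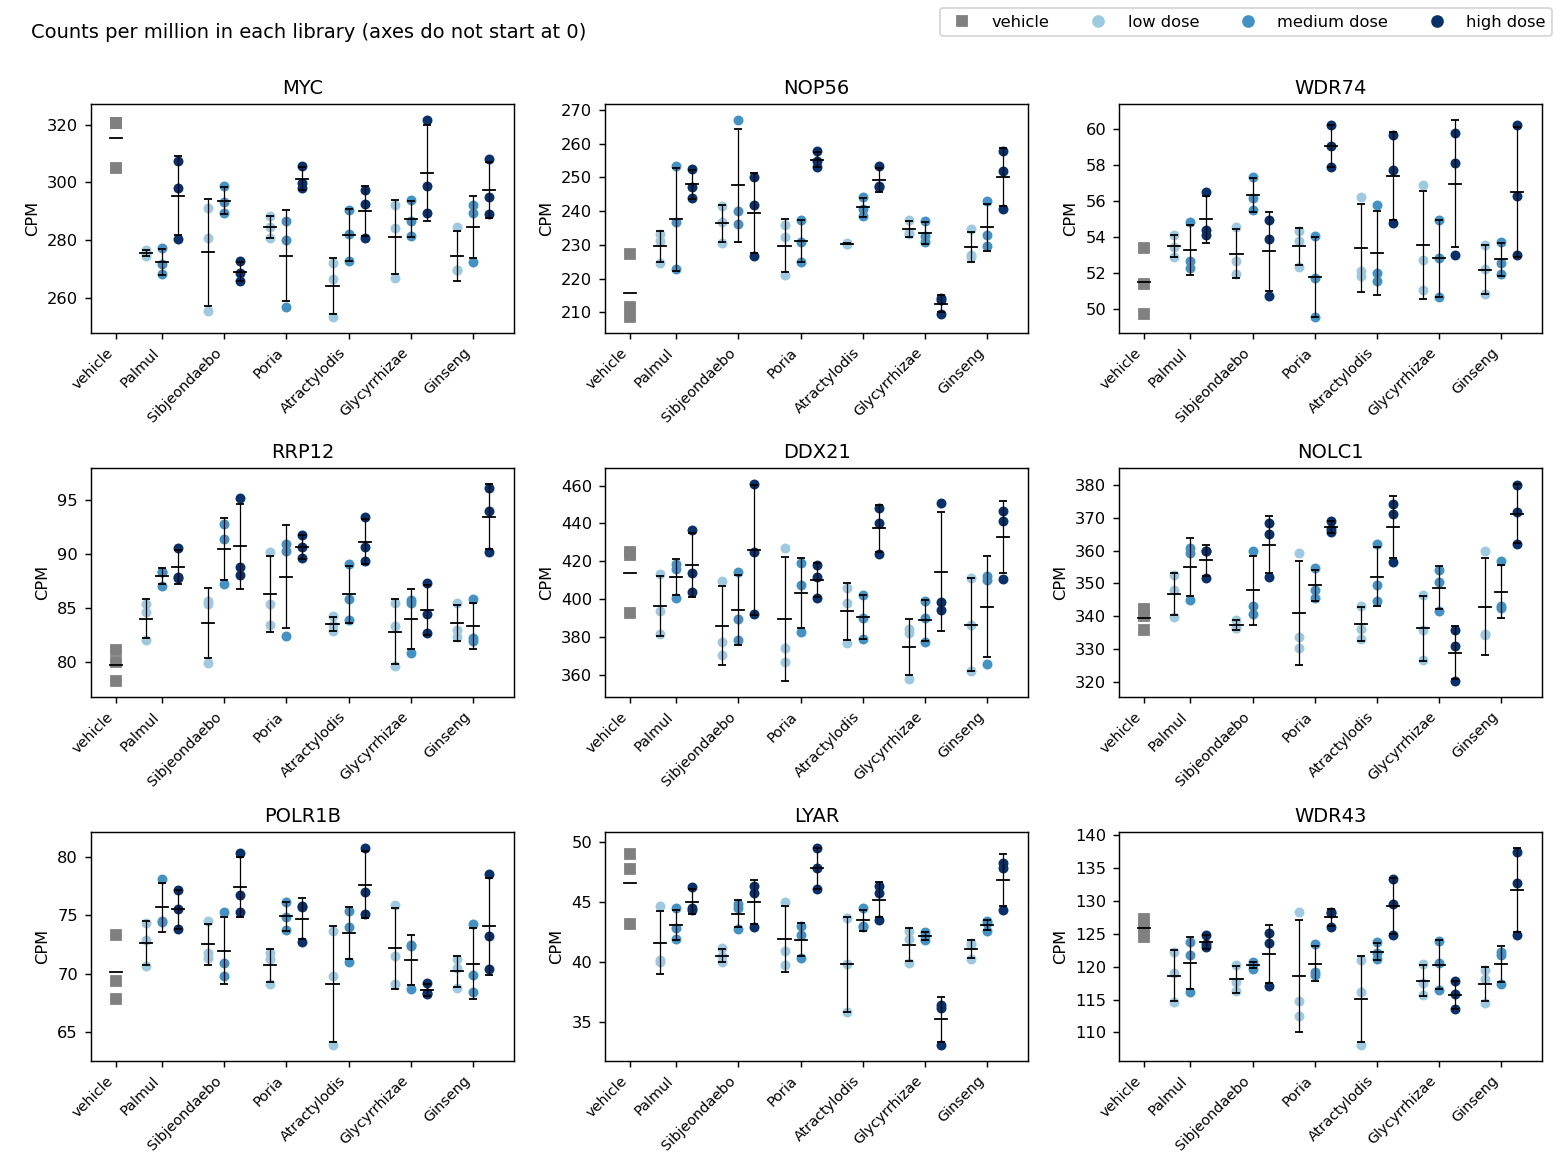
CPM of 9 genes in each library (points), with group means (horizontal bars) and, for treated groups, SD (whiskers, n = 3), for vehicle and for the low, medium and high doses of 6 extracts; the axes do not start at 0. Among treated groups LYAR and NOP56 are lowest at the high dose of Glycyrrhizae Radix, at 33.01 to 36.38 CPM and 209.6 to 214.4 CPM. The mean of MYC is highest there, with libraries that overlap those of other groups.

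Whether the dose response differed between extracts was tested directly. A joint test over the 6 extracts called 8 of the 35 genes, LYAR, NOP56, UTP20, POLR1C, RRP1B, MYBBP1A, BOP1 and NOP16, where 12.4% of all tested genes were called. The count was 5 without library 1 or library 2 of the high dose of Glycyrrhizae Radix and 4 without library 1 of its low dose, and it was 11 without the 3 outlying libraries, 13 in DESeq2 and 14 with a replicate block. The share of all tested genes is not given for these alternative fits. Within the set that held both Glycyrrhizae Radix and Panax Ginseng, the difference in dose response was called for 13 genes, all lower with Glycyrrhizae Radix, where 4.85% of all tested genes were called lower and 8.08% higher, 12.9% in all. The sign was the same for all 35 genes, with a median log2 difference of -0.177, and 0 to 3 genes had the other sign under the alternatives. The doses of these extracts differ in amount, 350 and 14 µg/mL against 500 and 20 µg/mL, and the first is an IC20.

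LYAR differed most. It had 36.38, 33.01 and 36.15 CPM at the high dose of Glycyrrhizae Radix and 47.81, 48.29 and 44.31 CPM at the high dose of Panax Ginseng, while the low dose held 41.87, 39.87 and 42.58 CPM with Glycyrrhizae Radix and 40.24, 41.6 and 41.42 CPM with Panax Ginseng. The difference in dose response was log2 -0.42 ± 0.07 (adjusted p = 3.52e-05). For UTP20 the high dose held 83.33, 78.98 and 74.38 CPM with Glycyrrhizae Radix and 107.3, 97.13 and 104.2 CPM with Panax Ginseng, and the difference in response was -0.36 ± 0.07 (adjusted p = 0.000159). The low doses of this gene overlapped between the extracts. NOP56 gave -0.27 ± 0.06 (adjusted p = 0.000456), BOP1 -0.29 ± 0.07 (adjusted p = 0.00409) and MYBBP1A -0.22 ± 0.06 (adjusted p = 0.00625).

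The other genes called were NOP58 at log2 -0.35 ± 0.10, NOP16 at -0.31 ± 0.10, TSR1 at -0.21 ± 0.06, DKC1 at -0.20 ± 0.06, WDR43 at -0.19 ± 0.06, RRP1B at -0.18 ± 0.06, NOP2 at -0.18 ± 0.06 and NOLC1 at -0.15 ± 0.05. They come from each assembly line, the large subunit (NOP16, BOP1, RRP1B and the RNA methyltransferase NOP2), the small subunit, both snoRNP classes and the scaffold group. The 3 polymerase subunits in the set were not called, but POLR1G, a polymerase subunit outside the set, was lower (log2 -0.42 ± 0.08, adjusted p = 0.000114). The smallest differences were those of MYC (-0.01 ± 0.06), DDX21 (-0.02 ± 0.08), GAR1 (-0.02 ± 0.10) and WDR74 (-0.025 ± 0.07), none of them called. Without library 1 of the low dose of Glycyrrhizae Radix the count was 6, and without the 3 outlying libraries it was 11. Between the formulas, and between Poria Cocos and Atractylodis Rhizoma, edgeR and DESeq2 both called 0 of the 35 genes. In edgeR 0.0% and 0.158% of all tested genes were called (for the herb pair 0.0912% higher and 0.0669% lower with Poria Cocos). The herb pair also gave 0 calls without the outlying libraries. At an unadjusted p below 0.05, a looser threshold to which these shares do not apply, edgeR had 3 and 0 of the 35 genes.

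**Figure D4:**
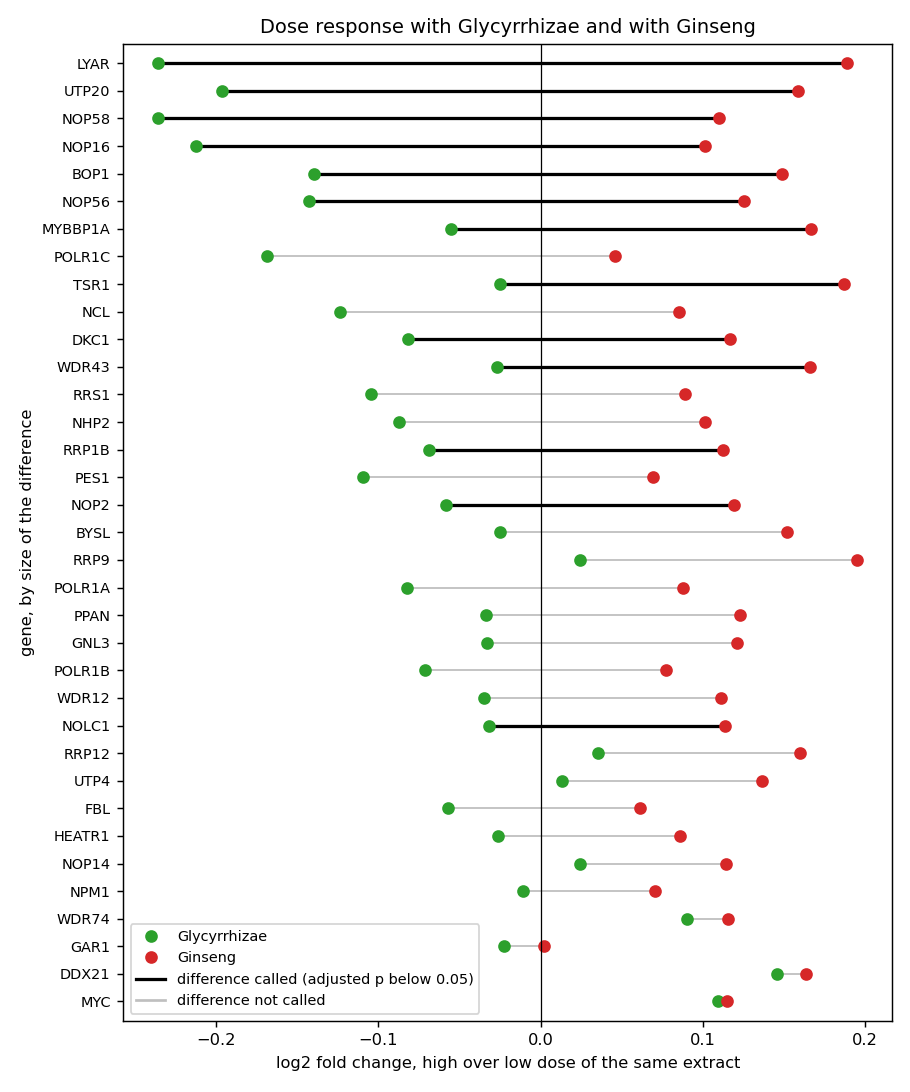
Log2 fold change of the high over the low dose (across) with Glycyrrhizae Radix (green) and Panax Ginseng (red) for each of the 35 genes, sorted by the size of the difference, which is drawn as a line and is dark where called. The green point lies left of the red one for all 35 genes, most widely for LYAR at -0.24 and 0.19.

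Against vehicle, more of these genes were higher than lower at the high doses of 5 extracts, and more were lower with Glycyrrhizae Radix. With Palmul-tang 10 rose and 1 fell, where 11.7% of all tested genes rose and 9.95% fell. With Sibjeondaebo-tang 13 rose and 4 fell (14.2% and 13.1% of all tested genes), with Poria Cocos 15 and 1 (13.4% and 11.6%), with Atractylodis Rhizoma 15 and 2 (11.9% and 10.6%), and with Panax Ginseng 14 and 0 (10.3% and 8.54%). With Glycyrrhizae Radix 3 rose and 11 fell, where 18.8% of all tested genes rose and 15.5% fell, 34.3% in all. At the low doses 2 to 5 genes rose and 4 or 5 fell in each extract, where 6.91% to 11.6% of all tested genes rose and 6.06% to 10.8% fell, with 20.4% called in all for Palmul-tang. All 12 comparisons share the same 3 vehicle libraries, whose totals lay at the low end and whose mitochondrial share was higher, and set and treatment cannot be told apart in them. With the mitochondrial share as a covariate, the calls of the high doses were 5, 8, 10, 9 and 8 with Palmul-tang, Sibjeondaebo-tang, Poria Cocos, Atractylodis Rhizoma and Glycyrrhizae Radix. The count with Panax Ginseng and the share of all tested genes are not given for this fit. The drop therefore cannot be read as particular to these genes. Without library 3 of vehicle the calls were 6 with Palmul-tang and 11 with Atractylodis Rhizoma, which also had 11 without library 1 of its high dose, and with Glycyrrhizae Radix they were 9 without library 2 of its high dose. Without the 3 outlying libraries 14 genes were called at the high dose and 6 at the low dose of Panax Ginseng, and 8 at the low dose of Poria Cocos.

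Markers moved here too, and their part in these results was not tested. CD68 was below vehicle at the high doses of Palmul-tang (log2 -0.72 ± 0.16, adjusted p = 0.00104) and Sibjeondaebo-tang (log2 -0.85 ± 0.17, adjusted p = 0.000116), and 0 to 2 of the 3 tested markers of other cell types were called per comparison with vehicle. The colon epithelium factor CDX2 was below vehicle at the high doses of Palmul-tang, Sibjeondaebo-tang, Poria Cocos, Atractylodis Rhizoma and Panax Ginseng, with log2 fold changes of -0.42 to -0.60.

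BOP1 and BYSL, a factor of small subunit maturation, stood above vehicle at the high and the low dose of all 6 extracts. BOP1 ran from 72.8 to 92.0 CPM over the treated libraries with a median of 82.97 CPM, and vehicle held 67.92, 69.61 and 62.25 CPM. BYSL ran from 34.19 to 44.88 CPM with a median of 39.21 CPM, and vehicle held 33.33, 31.93 and 26.97 CPM. No treated library of either gene reached down to the vehicle range. The log2 fold changes of the high doses were 0.14 to 0.40 for BOP1 and 0.27 to 0.47 for BYSL, the lowest of each with Glycyrrhizae Radix. With the mitochondrial covariate the calls of BOP1 at the high dose of Glycyrrhizae Radix (adjusted p = 0.341) and of BYSL at the low doses of Atractylodis Rhizoma (adjusted p = 0.117) and Panax Ginseng (adjusted p = 0.113) were lost.

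GNL3, LYAR, UTP4 and MYC stood on the other side of vehicle. GNL3, the nucleolar GTPase nucleostemin, was below vehicle at all 6 low doses and at 5 high doses, with 82.52 to 104.7 CPM in treated libraries (median 91.82) and 102.6, 105.3 and 105.1 CPM in vehicle. LYAR, UTP4 and MYC were below vehicle at the low dose of all 6 extracts. MYC at the low dose of Atractylodis Rhizoma, with 271.9, 266.6 and 253.1 CPM, was below the 304.8, 320.5 and 320.5 CPM of vehicle (log2 -0.26 ± 0.04, adjusted p = 1.57e-05). At the high doses MYC was still below vehicle with Sibjeondaebo-tang (log2 -0.23 ± 0.04) and Atractylodis Rhizoma (log2 -0.12 ± 0.04). LYAR at the high dose of Glycyrrhizae Radix, at 36.38, 33.01 and 36.15 CPM, lay below the 43.13, 48.98 and 47.76 CPM of vehicle (log2 -0.40 ± 0.05, adjusted p = 3.47e-08). With the covariate LYAR was not called at any of the 6 low doses, with adjusted p of 0.0629 to 0.317.

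Beside LYAR and GNL3, the genes called below vehicle at the high dose of Glycyrrhizae Radix were NOP58, NOP2, NOP16, NCL, WDR12, WDR43, RRP1B, UTP4 and UTP20. With the mitochondrial covariate fewer genes were called in this comparison, as given above. NCL, the nucleolin that coats nascent ribosomal RNA, had 1081, 982.9 and 993.3 CPM, against 1181, 1183 and 1186 CPM (log2 -0.22 ± 0.07, adjusted p = 0.00796). Those called above vehicle were BOP1, BYSL and WDR74. WDR74 had 59.77, 52.99 and 58.1 CPM, against 49.72, 53.36 and 51.35 CPM, and these overlapped (log2 0.15 ± 0.05, adjusted p = 0.0111). NOP56, DKC1, RRP12 and TSR1 were called above vehicle at the high doses of the other 5 extracts and not called with Glycyrrhizae Radix.

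The single libraries of Angelicae Gigantis Radix have no replicate check. The high dose over low dose log2 ratio was above 0 for 29 genes and below 0 for 6, with a median of 0.117 over the set and of -0.005 over all tested genes. LYAR was highest, at 46.87 CPM at the high dose and 36.88 CPM at the low dose (log2 ratio 0.345), followed by DDX21 with 469.6 and 371.2 CPM (0.339). GAR1, a core protein of box H/ACA particles, was lowest, at 31.97, 32.9 and 21.84 CPM at the low, medium and high dose (high over low -0.547).

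Other genes of the pathway were drawn from lists that share no gene with the 35 or with each other. In the mean of the 6 differences between high and low dose, 21 of 50 further genes of small subunit assembly rose and 0 fell, and 25 of 50 further genes of large subunit assembly rose and 0 fell, where 11.4% of all tested genes rose and 10.1% fell. Of 22 further RNA polymerase I subunits and factors 4 rose and 0 fell, led by TCOF1, the treacle protein of ribosomal DNA transcription (log2 0.12 ± 0.02, adjusted p = 8.3e-08). Of 79 cytosolic ribosomal protein genes, 0 were called in edgeR in the mean or in any extract. At an unadjusted p below 0.05 there were 22 with Sibjeondaebo-tang, where 76 of the 79 were lower at the high dose. There were 0 or 1 in the others and in the mean. No share of all tested genes is given for that looser threshold. Their median in the mean was -0.017, against 0.063 for the 35 genes. Between Glycyrrhizae Radix and Panax Ginseng the dose response was lower with Glycyrrhizae Radix for 9 of the small subunit list, 13 of the large subunit list and 2 of the 22 of the polymerase list, and higher for 0, where 4.85% of all tested genes were lower and 8.08% higher. WDR3 of the small subunit processome (log2 -0.35 ± 0.06), MRTO4 of the large subunit (-0.31 ± 0.06) and the polymerase subunit POLR1G (-0.42 ± 0.08) differed most. SHQ1, an assembly factor of box H/ACA particles and 1 of 3 genes called among 11 snoRNP partners, gave -0.40 ± 0.10.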

How the data were processed

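Directional MGI libraries of 100 bp paired reads were made from RNA of an integrity number above 7, per the labels' protocols. The submitters' processing notes name FastQC 0.11.9, Trim Galore 0.6.5, STAR 2.7.3a, RSEM 1.3.3 and hg38. Which annotation release was used, the sources read here do not give. The authors deposited RSEM expected counts per gene, with 7.7% to 9.78% of values not whole, which were rounded here. Another 213 columns of samples outside those described here were not used.

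One model held the 57 libraries of 19 groups of 3 (38 residual degrees of freedom, common biological coefficient of variation 0.0501). It was fitted in edgeR 4.0.16 (R 4.3.3) after filterByExpr and TMM scaling (factors of 0.956 to 1.031), with the quasi-likelihood test, Benjamini-Hochberg adjustment over the 16445 tested genes within each of 23 comparisons and calls below 0.05. The script was tested on simulated data. A value after ± is an SE unless SD is named. CPM are counts scaled to a common total with TMM factors, so they compare libraries and not genes. Angelicae Gigantis Radix, without replicates, was given as log2 ratios with a prior count of 2 and a scaling of its own. Alternatives were RLE factors, no filter, DESeq2 1.42.0, a replicate block, 6 libraries alone, the mitochondrial share as a covariate and each library left out. After the data were seen, the 3 outlying libraries left out together and the mean without Glycyrrhizae Radix were added. Positive controls were not analysed here. PPAN overlaps a readthrough gene, so its counts are uncertain.

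The members, gene lists and tests were chosen with earlier results of these data known. Values by library were given by rule for MYC, the member of smallest p in each role group in the mean over extracts, the 4 called in most extracts and the 2 of smallest p in the test of differences between extracts; the other members given by library were chosen after their values were seen. Genes outside the set were named as the called gene of largest change, in each direction, of their list in a comparison. Promoter sequences are from RefSeq.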

Additional observations from a re-analysis of the deposited data

Results flagged for a closer look

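The change between high and low dose differed among the 6 extracts for 8 of the 35 genes in edgeR's joint test, a test of the difference itself. The adjusted p was 5.08e-05 for LYAR, 0.000448 for NOP56 and 0.00129 for UTP20. It was 0.0116 for POLR1C, 0.0203 for RRP1B, 0.0362 for MYBBP1A, 0.0397 for BOP1 and 0.043 for NOP16. About 12.4% of all tested genes were called in the same test.

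Between Glycyrrhizae Radix and Panax Ginseng, placed in the same set by their sample names, the log2 dose response differed for 13 genes. It was lower with Glycyrrhizae Radix in each. The difference was -0.424 for LYAR, -0.355 for UTP20, -0.346 for NOP58, -0.314 for NOP16 and -0.289 for BOP1. It was -0.268 for NOP56, -0.222 for MYBBP1A, -0.212 for TSR1, -0.198 for DKC1 and -0.193 for WDR43. The smallest were -0.181 for RRP1B, -0.177 for NOP2 and -0.146 for NOLC1. Groups of 3 libraries are too small for a check of single outlying libraries by gap and range.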

How the results depend on the processing

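No gene called among the 35 changed sign under any alternative run, and RLE factors moved no count by over 1.5 times. No share of all tested genes is given for any alternative fit, here or above. A changed count of members therefore cannot be set against other genes. Fitted with 6 libraries alone, high against low dose gave 0 calls with Sibjeondaebo-tang, Poria Cocos, Atractylodis Rhizoma and Panax Ginseng. Against vehicle that fit gave 7 at the high dose of Sibjeondaebo-tang and 4, 3, 4 and 3 at the low doses of Poria Cocos, Atractylodis Rhizoma, Glycyrrhizae Radix and Panax Ginseng. With no filter on low counts, high against low dose gave 3 with Atractylodis Rhizoma and 2 with Panax Ginseng, the difference between Glycyrrhizae Radix and Panax Ginseng gave 7, the high dose of Glycyrrhizae Radix against vehicle 8, and the low doses of Poria Cocos and Glycyrrhizae Radix against vehicle 5 each. DESeq2 gave 5 for high against low dose with Poria Cocos and 13 for the difference among extracts. With the mitochondrial share as a covariate, the high doses against vehicle gave 5 with Palmul-tang, 8 with Sibjeondaebo-tang, 10 with Poria Cocos, 9 with Atractylodis Rhizoma and 8 with Glycyrrhizae Radix, and the low doses 5 with Poria Cocos and 4 with Atractylodis Rhizoma. Counts of the other comparisons with this covariate are not given. Without the 3 outlying libraries high against low dose gave 4 with Poria Cocos. The 6-library fits have fewer residual degrees of freedom, and the fits without a filter have more genes to adjust over. The cause of the changes in these and in the other fits was not tested. Same-numbered high and low dose libraries had correlations, on deviations from the group means, of -0.111 to 0.189. All 3 were positive with Panax Ginseng (0.063, 0.072 and 0.189) and with Sibjeondaebo-tang, and signs were mixed with the other extracts. Pairing within a set was not modelled. With a replicate block shared by all sets the calls were 3 with Sibjeondaebo-tang, 5 with Poria Cocos, 10 with Panax Ginseng and 14 among extracts, and no other count moved by over 1.5 times. As each library was left out, high against low dose gave 0 calls with Palmul-tang throughout, 0 to 1 with Sibjeondaebo-tang, 0 to 4 with Poria Cocos, 2 to 8 with Atractylodis Rhizoma, 5 to 7 with Glycyrrhizae Radix and 2 to 9 with Panax Ginseng. The mean over extracts gave 23 to 29, the difference among extracts 4 to 12, that between Glycyrrhizae Radix and Panax Ginseng 6 to 13 and the other 2 differences 0 throughout. Against vehicle the high doses, in the order of Palmul-tang, Sibjeondaebo-tang, Poria Cocos, Atractylodis Rhizoma, Glycyrrhizae Radix and Panax Ginseng, gave 6 to 11, 12 to 15, 11 to 15, 11 to 16, 9 to 14 and 10 to 13, and the low doses 5 to 9, 6 to 11, 5 to 10, 5 to 10, 4 to 8 and 4 to 6. At the low dose against vehicle, library 3 of vehicle left 5 calls with Poria Cocos when left out, and with Glycyrrhizae Radix 5 were left without library 2 or 3 of vehicle and 4 without library 3 of the low dose. Of the single-gene calls, DESeq2 and the replicate block kept 198 of 198, RLE factors 197, no filter 136 of 198, leaving out 1 library 1725 of 2046, the 6-library fits 100 of 159, the mitochondrial covariate 102 of 159 and leaving out the 3 outlying libraries 67 of 76, with 0 reversed. Counting signs of all 35 genes, called or not, the majority turned under some alternatives where few were called: 13 to 20 were positive at the low dose of Atractylodis Rhizoma against vehicle, 16 to 22 at that of Poria Cocos, 15 to 21 at that of Glycyrrhizae Radix, 15 to 18 at that of Panax Ginseng, 17 to 24 at that of Sibjeondaebo-tang, 14 to 19 for the difference between the formulas and 7 to 18 for that between Poria Cocos and Atractylodis Rhizoma. Differences of this size, near the replicate spread, set the limit: 1 library often decided a call within an extract.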

Other observations

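Of 28 tested MYC target genes outside the set, 15 rose and 0 fell in the mean of the 6 differences between high and low dose, where 11.4% of all tested genes rose and 10.1% fell, and SLC3A2, the heavy chain of an amino acid transporter, changed most (log2 0.33 ± 0.02, adjusted p = 3.47e-16). With Glycyrrhizae Radix alone SLC3A2 rose by log2 0.91 ± 0.06 (adjusted p = 3.2e-18), in the same libraries in which LYAR and NOP56 fell. Of 12 MYC partners and antagonists 2 rose and 2 fell in the mean, shares near those of all tested genes. MXD4, a MAX partner that opposes MYC, fell by 0.23 on the log2 scale (SE 0.02, adjusted p = 5.08e-15), with called falls in Poria Cocos, Atractylodis Rhizoma, Glycyrrhizae Radix and Panax Ginseng. MXD1, of the same family, rose with Glycyrrhizae Radix (log2 0.39 ± 0.06, adjusted p = 1.03e-06).

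In the same mean 3 of 11 snoRNP partners rose and 0 fell, 2 of 11 colon epithelium markers rose and 3 fell, and 0 of 13 mitochondrially encoded genes and 0 of the 3 tested markers of other cell types were called in edgeR, each with 0 at an unadjusted p below 0.05 in that mean. Single comparisons called markers, among them CD68 with Glycyrrhizae Radix.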
